A study of Mus musculus with 12 samples.

Results

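The genes described here encode proteins that take actin filaments apart, recycle their subunits or regulate these steps. They are the cofilin genes Cfl1 and Cfl2 and their relative Dstn (destrin), the profilin genes Pfn1 and Pfn2, the cyclase-associated protein genes Cap1 and Cap2, Wdr1, Gsn (gelsolin) and Limk1 (LIM kinase). Members were all probe sets annotated to exactly 1 of these 10 genes, which gave 24 of the 22690 probe sets of the array. To enter the tests a probe set needed a log2 signal over 4 on 3 or more of the 12 arrays. Of the member probe sets 20 met this, and they cover all 10 genes. The 4 that did not were 1 each of Cap1 and Limk1 and 2 of Gsn.

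The study measured striatum, the nucleus accumbens included, of SRF mutant and control mice 1 hour after an intraperitoneal injection of cocaine (25 mg/kg) or saline. SRF, serum response factor, is a transcription factor, and the series title gives the question as its part in activity-regulated transcription. Groups were taken from the sample titles, with 3 arrays in each. They were mutants given cocaine, mutants given saline, controls given cocaine and controls given saline. All animals, in every group, were female littermates 10 to 15 weeks old, housed singly and handled beforehand. The allele that was mutated and the cells in which it was changed are not stated in the labels, and the controls are named only as control or wt. The treatment text of every sample, saline-treated ones included, names cocaine, and the titles and the series design name saline.

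Actin filaments grow at 1 end and are taken apart at the other, and the subunits are used again. Cofilins and destrin bind ageing filaments, sever them and speed the loss of subunits, and WDR1 helps to dismantle filaments that carry cofilin. The cyclase-associated proteins strip cofilin from the released monomers and recharge them with ATP, profilins carry charged monomers to growing ends, and LIM kinase switches cofilin off by phosphorylating it. In neurons this cycle shapes dendritic spines and growth cones. SRF, with cofactors that sense free actin monomers, is known to control many genes of the actin cytoskeleton.

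The tested Srf probe set, which checks the genotype labels, had log2 signals of 5.01 to 5.49 in the 6 mutant arrays and 6.97 to 7.21 in the 6 control arrays. It was 3.54-fold lower in mutants (log2 change -1.83, SE 0.0662, limma adjusted p = 5.70e-09). The description field of the samples gives other groups than the titles: all 4 arrays that it calls mutant are controls by title and by their Srf signal. Arrays of the same group correlated at 0.986 to 0.993 and arrays of different groups at 0.976 to 0.990, and 0 pairs of arrays were identical. All 8 striatal neuron marker genes on the array passed the filter, and their summed linear signal was 11939 to 13331 in mutants and 11156 to 11822 in controls, so it moved with genotype, with Penk, Tac1 and Gad1 higher and Rgs9 lower in mutants. The sums of the other marker lists overlapped between genotypes over both treatments, at 9398 to 11188 in mutants and 8645 to 10669 in controls for oligodendrocytes (9 of 11 genes tested), 3166 to 3790 and 3309 to 3766 for astrocytes (8 of 8), 937 to 1103 and 999.7 to 1223 for microglia (8 of 8), and 316 to 441 and 181 to 505 for vessel cells (5 of 9). After cocaine alone the microglia sums did not overlap, at 937 to 1045 in mutants and 1049 to 1170 in controls. At the 1 probe set per gene used for these sums, limma called 0 genes of these 4 lists between genotypes over both treatments (adjusted p of 0.144 or more). The astrocyte gene Gfap was not called at that probe set (0.39) but was higher in mutants at its other one (0.80, SE 0.130, adjusted p = 0.00180), and second probe sets of the striatal genes Gad1 (0.57) and Pde10a (0.58) were higher too. Of the choroid plexus and blood list 1 gene of 6 passed the filter, Ttr, which read 779 on a linear scale in replicate 3 of the cocaine-treated controls and 7.12 to 59.5 in the other 11 arrays. Of the cortical list 1 gene, Nrgn, was tested, and it read 0.17 higher in mutants (adjusted p = 0.323). The part of these differences in the results below was not tested. In pieces of tissue, fewer cells that express a gene and less of its RNA per cell cannot be told apart.

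The stretches of genome at the starts of Wdr1, Cap1, Cap2 and Cfl1 are shown because these are the members with probe sets lower in mutants, and SRF binds DNA at the CArG box. Each runs from 250 bases before to 50 bases after the annotated start, 5′ to 3′ along the gene (RefSeq, GRCm38.p6). Capitals mark a CArG box with 1 mismatch. They lie at chr5:38561650-38561949 on the minus strand (Wdr1), chr4:122886027-122886326 on the minus strand (Cap1), chr13:46501653-46501952 on the plus strand (Cap2) and chr19:5490205-5490504 on the plus strand (Cfl1).
Wdr1: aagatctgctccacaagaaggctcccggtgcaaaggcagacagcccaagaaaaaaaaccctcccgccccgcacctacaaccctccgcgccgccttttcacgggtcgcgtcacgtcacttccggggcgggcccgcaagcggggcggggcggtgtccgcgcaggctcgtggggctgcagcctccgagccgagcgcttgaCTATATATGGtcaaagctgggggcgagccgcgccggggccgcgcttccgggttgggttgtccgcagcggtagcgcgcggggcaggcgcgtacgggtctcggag
Cap1: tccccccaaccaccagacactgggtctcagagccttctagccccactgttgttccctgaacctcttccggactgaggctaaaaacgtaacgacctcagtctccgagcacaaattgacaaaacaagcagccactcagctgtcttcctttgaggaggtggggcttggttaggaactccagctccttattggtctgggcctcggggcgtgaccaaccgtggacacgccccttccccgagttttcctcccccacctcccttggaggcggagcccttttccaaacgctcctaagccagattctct
Cap2: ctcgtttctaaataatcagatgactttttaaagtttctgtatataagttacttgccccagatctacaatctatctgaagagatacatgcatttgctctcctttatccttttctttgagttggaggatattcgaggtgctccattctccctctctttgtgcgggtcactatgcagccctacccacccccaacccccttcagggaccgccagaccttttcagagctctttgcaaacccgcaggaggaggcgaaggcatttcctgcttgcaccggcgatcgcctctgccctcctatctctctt
Cfl1: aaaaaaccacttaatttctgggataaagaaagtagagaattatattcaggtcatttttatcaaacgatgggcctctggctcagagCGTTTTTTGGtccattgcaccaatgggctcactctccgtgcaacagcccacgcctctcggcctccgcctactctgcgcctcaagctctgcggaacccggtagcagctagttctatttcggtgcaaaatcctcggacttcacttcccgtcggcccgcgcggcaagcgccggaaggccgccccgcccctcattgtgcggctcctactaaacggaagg

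None of the 13 start windows listed for the 10 genes held an exact CArG box, which 1.63% of all 32851 windows of this length did. The CArG box reads the same way on both strands, so 1 search covered both. Allowing 1 mismatch, 4 of the 13 windows held a match, against 19.9% of all windows. One of them was Wdr1, with a match that begins at position -53 from the start, and another was Cfl1, at position -165. The other matching windows belonged to Dstn and Gsn, whose probe sets were not called. The GC box GGGCGG, on either strand and with overlapping matches counted, stood in 10 of the 13 windows and in 35.7% of all windows. TATAAA on either strand stood in 0 of the 13 and in 13.6% of all. The matches are letters in a window and no evidence of binding.

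Of the 20 tested member probe sets, 7 were lower and 1 was higher in mutants over both treatments. All 3 Wdr1 probe sets were 1.42-fold to 1.49-fold lower and both Cap2 probe sets 1.18-fold and 1.30-fold lower. One of the Cfl1 probe sets was 1.17-fold lower, and Pfn1 was 1.21-fold higher. The seventh lower call was a Cap1 probe set that lay under the floor of 4 in all 6 mutant arrays and passed the filter through control arrays alone, so it had to differ. The probe sets of Cfl2, Dstn, Pfn2, Gsn and Limk1 were not called. These 8 calls (40% of the 20) stand beside 9.47% of all 11102 probe sets tested, which were called in either direction in this contrast (4.41% higher and 5.05% lower). The 8 calls lie in 5 genes, and probe sets of the same gene are not independent. Averaged over each gene's tested probe sets, Wdr1, Cap2 and Cap1 were lower and Pfn1 higher, and Cfl1 was not called (limma adjusted p = 0.0825). Without the Cap1 probe set the count of called probe sets was 7 of 19 (36.8%), with 6 lower and 1 higher. The members were chosen with earlier results of these data known, so these shares are a description and no test of the family. The median change of the members was -0.02, against -0.01 over all probe sets tested. The other 6 lower probe sets also did not overlap between the 6 mutant and the 6 control arrays, as 3.12% of all probe sets did in that direction. The Cap1 probe set was narrowly apart too, but is left aside because of how it passed the filter. Without replicate 2 of the cocaine-treated mutants, replicate 3 of the saline-treated mutants or replicate 3 of the saline-treated controls the count was 5, and with any other single array left out it was 6 or 7.

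**Figure D1:**
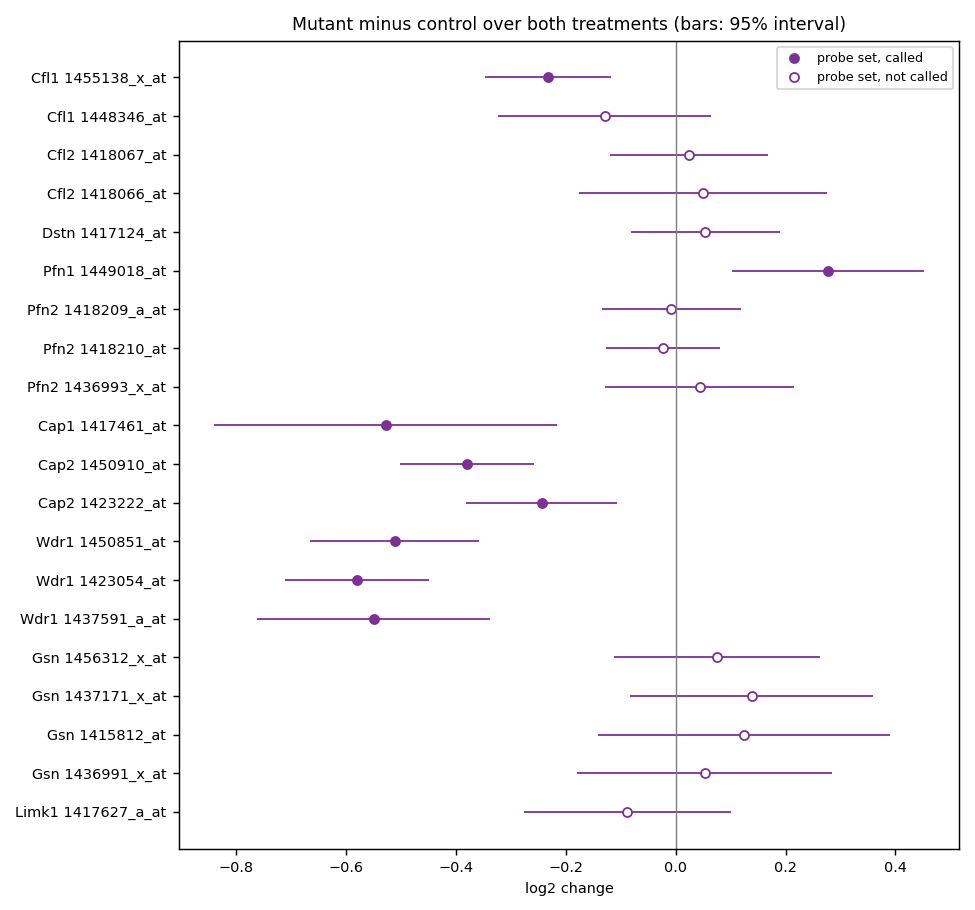
Log2 change between mutants and controls over both treatments (horizontal axis) for the 20 tested probe sets (vertical axis), with limma's 95% interval; filled points are called at an adjusted p under 0.05. The 3 Wdr1 probe sets lie between -0.58 and -0.51, and Pfn1 is the called point on the right, at 0.28.

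Wdr1 encodes the partner that makes cofilin-bound filaments fall apart. Its probe set 1423054_at read 5.52, 5.67 and 5.43 in mutants after cocaine and 5.72, 5.54 and 5.56 after saline, against 6.14, 6.08 and 6.05 in controls after cocaine and 6.16, 6.19 and 6.31 after saline. Every mutant array lay below every control array, with a gap wider than the SD within any group. The change was -0.58 (SE 0.0603, 95% interval -0.71 to -0.45, limma adjusted p = 5.92e-05), which ranked 64 among the 11102 probe sets by p.

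The second Wdr1 probe set, 1450851_at, read 6.54, 6.78 and 6.63 in mutants after cocaine and 6.74, 6.71 and 6.51 after saline, against 7.17, 7.19 and 7.19 in controls after cocaine and 7.20, 6.95 and 7.27 after saline. Again no mutant array reached a control array, and the cocaine-treated controls were nearly identical to one another. The change was -0.51 (SE 0.0710, 95% interval -0.66 to -0.36, limma adjusted p = 0.000535). The third, 1437591_a_at, lay closer to the floor of the filter, at 4.47, 3.996 and 4.32 in mutants after cocaine and 4.56, 4.55 and 4.44 after saline, against 5.13, 4.96 and 4.68 in controls after cocaine and 4.78, 4.95 and 5.14 after saline. Its groups did not overlap either (change -0.55, SE 0.0978, adjusted p = 0.00343). The 3 probe sets therefore gave 1 direction and nearly 1 size, and their mean was 1.46-fold lower in mutants (log2 change -0.55, SE 0.0585). All 3 were called in each of the 12 fits that left out 1 array.

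The cyclase-associated proteins work on the monomers that cofilin releases. Cap2, the member of this pair that is prominent in heart, muscle and brain, read 8.20, 8.19 and 8.11 at 1450910_at in mutants after cocaine and 8.12, 8.10 and 8.32 after saline, against 8.63, 8.53 and 8.57 in controls after cocaine and 8.56, 8.47 and 8.57 after saline. All mutant arrays were lower than all control arrays; replicate 3 of the saline-treated mutants came closest to the controls. The change was -0.38 (SE 0.0563, 95% interval -0.50 to -0.26, adjusted p = 0.000905), and it was called with any 1 array left out.

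At its other probe set, 1423222_at, Cap2 read 6.83, 6.78 and 6.87 in mutants after cocaine and 6.98, 6.89 and 6.92 after saline, against 7.32, 7.05 and 7.005 in controls after cocaine and 7.03, 7.12 and 7.21 after saline. The genotypes were separated by a narrow gap, between 6.98 in mutants and 7.005 in controls. This change was -0.24 (SE 0.0634, 95% interval -0.38 to -0.11, adjusted p = 0.0300). The call was lost without any 1 of 7 arrays (replicates 1 and 2 of the cocaine-treated mutants, 2 and 3 of the saline-treated mutants, 1 of the cocaine-treated controls and 2 and 3 of the saline-treated controls), with changes of -0.24 to -0.20 and adjusted p up to 0.0710.

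Cap1, the broadly expressed member, was near background. Its probe set 1417461_at read 3.79, 3.79 and 3.51 in mutants after cocaine and 3.70, 3.79 and 3.30 after saline, against 3.80, 3.79 and 4.62 in controls after cocaine and 4.37, 4.05 and 4.41 after saline. The signal exceeded the floor of 4 in 4 arrays, all of them controls, so it was tested only through the genotype in which it was higher, and its fold depends on the authors' background correction. Among cocaine-treated controls 2 arrays lay at the level of the upper mutant arrays and replicate 3, the array with the high Ttr signal, lay well above. The change was -0.53 (SE 0.144, 95% interval -0.84 to -0.22, adjusted p = 0.0365). It was -0.39 (adjusted p = 0.0449) without that array. The call was lost without any 1 of the cocaine-treated mutants, replicates 1 or 3 of the saline-treated mutants or replicates 1 or 3 of the saline-treated controls (changes of -0.55 to -0.45, adjusted p up to 0.0879). The other Cap1 probe set was below the floor in all arrays, at 2.82 to 3.13 in mutants and 3.02 to 3.73 in controls.

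**Figure D2:**
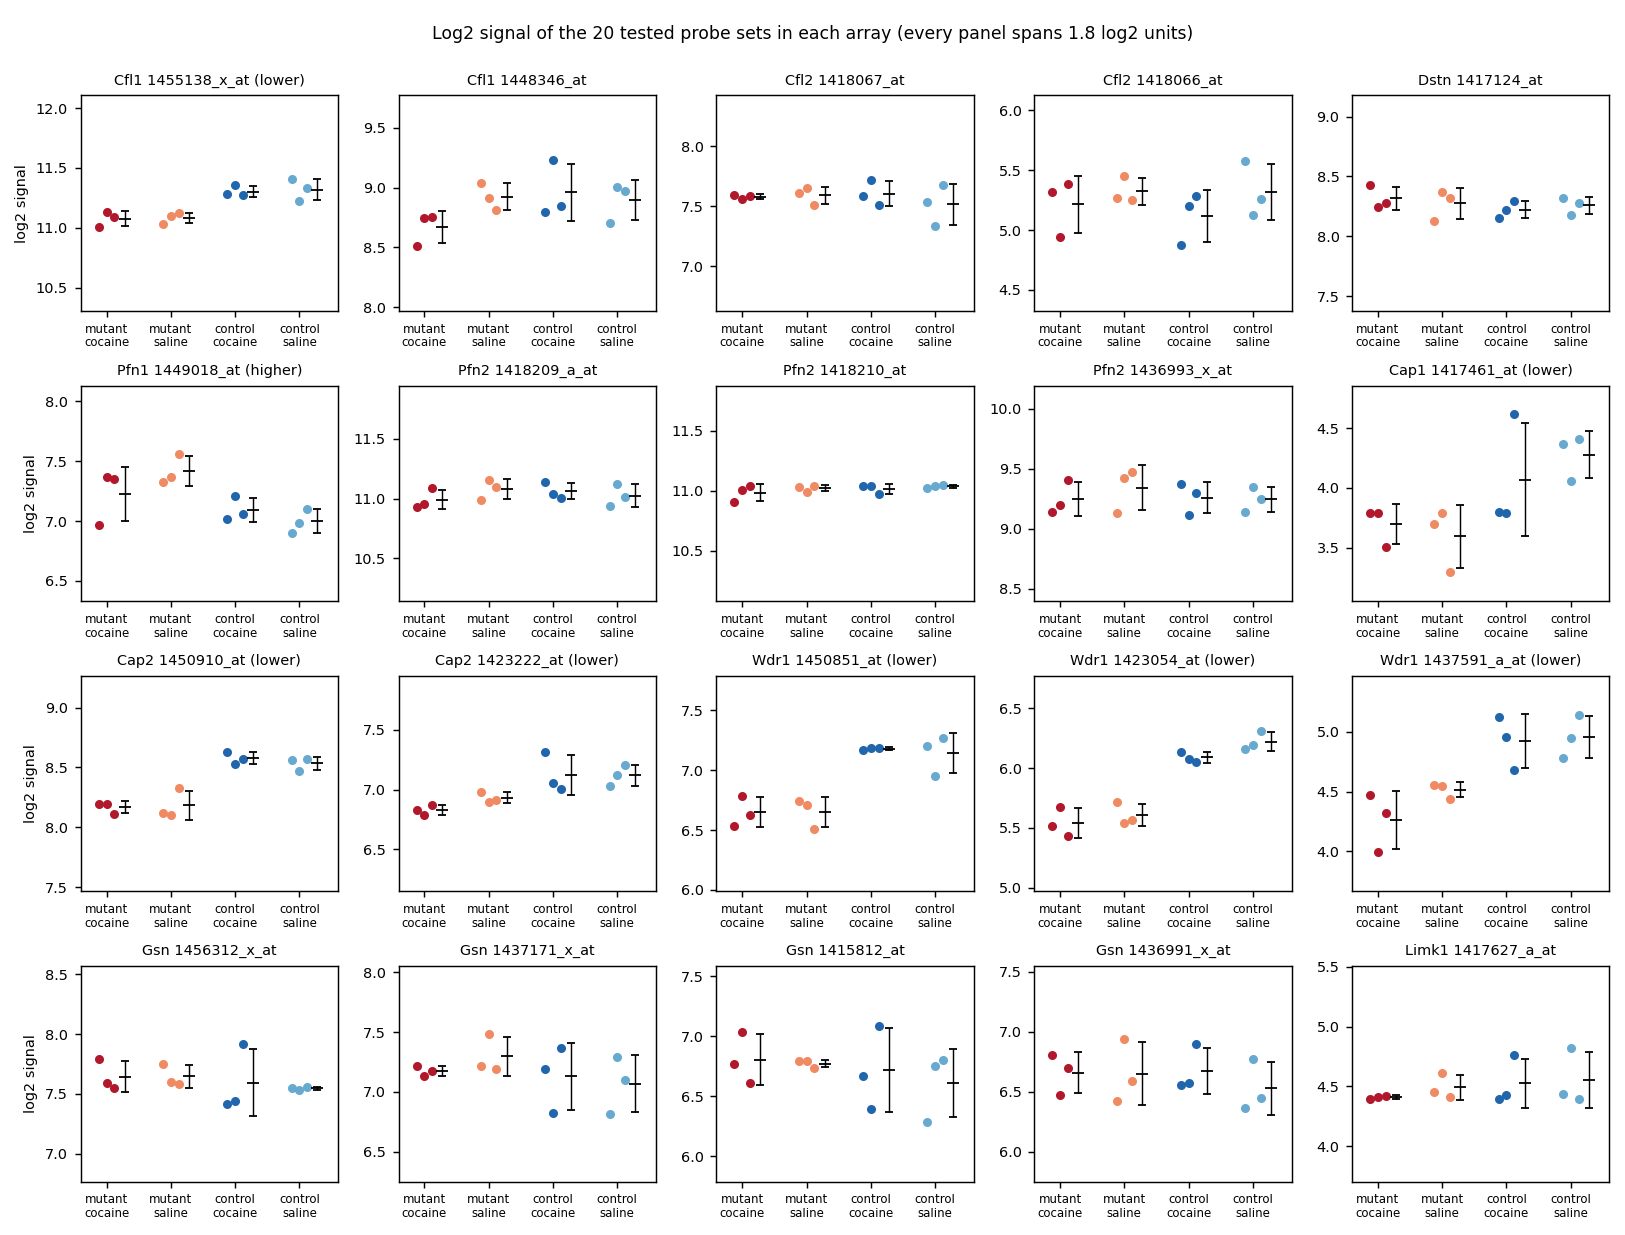
Log2 signal (vertical axis) of the 20 tested probe sets in each of the 12 arrays by group, with the mean and SD of the 3 arrays in black; titles give the direction of a call over both treatments. In the 3 Wdr1 and both Cap2 panels all mutant points lie below all control points, while the Cfl2, Dstn, Pfn2, Gsn and Limk1 panels overlap.

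Among the filament-severing proteins, Cfl1 (the main non-muscle cofilin) gave a small change at 1 of its 2 probe sets. Probe set 1455138_x_at read 11.01, 11.13 and 11.09 in mutants after cocaine and 11.03, 11.10 and 11.12 after saline, against 11.28, 11.36 and 11.27 in controls after cocaine and 11.40, 11.22 and 11.33 after saline. The groups did not overlap, with the highest mutant at 11.13 and the lowest control at 11.22. The change was -0.23 (SE 0.0528, 95% interval -0.35 to -0.12, adjusted p = 0.0147), and it was called with any 1 array left out. The suffix x marks probe sets with probes that can also bind other transcripts, and binding to transcripts of related genes was not tested.

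The other Cfl1 probe set, 1448346_at, read 8.51, 8.74 and 8.76 in mutants after cocaine and 9.04, 8.91 and 8.82 after saline, against 8.80, 9.23 and 8.85 in controls after cocaine and 8.70, 9.01 and 8.97 after saline. Here the genotypes overlapped, and the cocaine-treated mutants had the lowest group mean (8.67, against 8.89 to 8.96 in the other groups). Its change over both treatments was -0.13 (SE 0.0892, 95% interval -0.32 to 0.06, adjusted p = 0.425). Averaged over both probe sets, Cfl1 changed by -0.18 (SE 0.0606) and was not called (adjusted p = 0.0825).

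Cfl2, known as the muscle cofilin, read 7.51 to 7.65 in mutants and 7.33 to 7.72 in controls at 1418067_at, a change of 0.03 with a 95% interval of -0.12 to 0.17. Its dimmer probe set, 1418066_at, read 4.94 to 5.45 in mutants and 4.87 to 5.58 in controls (0.05, 95% interval -0.175 to 0.276). Dstn, whose product severs and depolymerises filaments as cofilin does, read 8.43, 8.24 and 8.28 in mutants after cocaine and 8.13, 8.37 and 8.32 after saline, against 8.15, 8.22 and 8.30 in controls after cocaine and 8.32, 8.18 and 8.28 after saline. The Dstn groups were interleaved, and the interval of the change, -0.08 to 0.19, does not reach the size measured for Wdr1 in either direction.

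Gsn, the calcium-dependent severing and capping protein, which in mouse brain is strong in oligodendrocytes, had 4 tested probe sets with changes of 0.05 to 0.14 and adjusted p of 0.457 to 0.819. Probe set 1415812_at, for example, read 6.61 to 7.04 in mutants and 6.29 to 7.09 in controls, with the highest and the lowest array both among controls. The array with the high Ttr signal gave the highest control reading at each of the 4 Gsn probe sets, 7.92, 7.37, 7.09 and 6.90. The remaining 2 probe sets of Gsn lay at 2.33 to 2.97 in mutants and 2.36 to 2.93 in controls, below the filter.

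Of the profilin genes Pfn1 was called and Pfn2 was not, and the difference between them was not tested. Pfn1, the widely expressed profilin, read 6.97, 7.37 and 7.35 in mutants after cocaine and 7.33, 7.37 and 7.56 after saline, against 7.02, 7.21 and 7.06 in controls after cocaine and 6.90, 6.99 and 7.10 after saline. After saline all mutants were above all controls, and after cocaine 1 mutant array, replicate 1, lay below the 3 controls. Its change of 0.28 (SE 0.0806, 95% interval 0.10 to 0.45, adjusted p = 0.0482) passed the threshold narrowly. The call held with replicate 1 of the cocaine-treated mutants left out (0.34) and was lost with any 1 of the other 11 arrays left out, at changes of 0.24 to 0.31 and adjusted p up to 0.112.

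Pfn2, the profilin typical of neurons, had 3 tested probe sets with changes of -0.02 to 0.04. The narrowest was 1418210_at, at 10.91, 11.01 and 11.04 in mutants after cocaine and 11.03, 10.99 and 11.04 after saline, against 11.04, 11.04 and 10.97 in controls after cocaine and 11.03, 11.04 and 11.05 after saline. Its 12 readings were almost level, and the 95% interval of the change was -0.13 to 0.08. Limk1, the kinase that inactivates cofilin, read 4.39 to 4.61 in mutants and 4.39 to 4.82 in controls, close to the floor of the filter, with a change of -0.09 (95% interval -0.28 to 0.10). Its other probe set lay at 2.30 to 2.32 in mutants and 2.30 to 2.43 in controls.

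The genotype difference was also measured in each treatment. The changes in these contrasts come from different arrays, but their spread was estimated jointly, in the fit to all arrays. Each probe set therefore has the same SE in both contrasts (0.0853 for Wdr1 1423054_at). Their adjusted p are not independent, and the contrasts are not separate replications. After saline 3 member probe sets were lower and 0 higher in mutants (15% of 20, against 1.64% of all probe sets tested for lower calls and 2.98% for either direction), and after cocaine 4 were lower and 0 higher (20%, against 1.92% for lower calls and 4.19% for either direction). Wdr1 1423054_at changed by -0.61 after saline and -0.55 after cocaine (adjusted p = 0.00160 and 0.00247), and Cap2 1450910_at by -0.35 and -0.41 (adjusted p = 0.0326 and 0.0109). Wdr1 1450851_at was called in both (-0.49 and -0.53), and Wdr1 1437591_a_at after cocaine (-0.66, against -0.44 after saline with adjusted p = 0.127). After saline the count was 1, Wdr1 1423054_at, without replicate 1 or without replicate 3 of the saline-treated controls, and 2 without any 1 of the saline-treated mutants or replicate 2 of the saline-treated controls. After cocaine it was 2, both Wdr1 (1423054_at and 1450851_at), without replicate 1 of the cocaine-treated controls. Of single calls, that of Cap2 1450910_at after saline was lost without replicate 1 or 2 of the saline-treated mutants, replicate 3 of the cocaine-treated controls or any 1 of the saline-treated controls (adjusted p of 0.0511 to 0.118), and after cocaine without replicate 1 of the cocaine-treated controls (0.0507). Wdr1 1450851_at lost its call after saline without replicate 3 of the saline-treated mutants or replicates 1 or 3 of the saline-treated controls (up to 0.0799). Wdr1 1437591_a_at lost its call after cocaine without replicate 2 of the cocaine-treated mutants or replicates 1 or 2 of the cocaine-treated controls (up to 0.0785).

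Mutants and controls did not overlap at 7 member probe sets lower and 2 higher after saline, as 9.73% and 9.18% of all probe sets did, and at 8 lower after cocaine, against 13.8%. Both lower counts include the Cap1 probe set that passed the filter through control arrays alone.

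Pfn1 read 0.42 higher in mutants after saline (SE 0.114, adjusted p = 0.0723) and 0.13 higher after cocaine (adjusted p = 0.623), neither of which passed. Without replicate 1 of the cocaine-treated mutants, which enters the saline contrast through the shared spread alone, its change after saline was called (adjusted p = 0.0321). Cap1 differed by -0.68 after saline (adjusted p = 0.108, and 0.0242 without replicate 3 of the cocaine-treated controls) and by -0.37 after cocaine (adjusted p = 0.391). Cfl1 1455138_x_at gave -0.24 and -0.23 (adjusted p = 0.131 and 0.119), nearly the same value in both treatments. The other Cfl1 probe set, 1448346_at, gave 0.03 after saline and -0.29 after cocaine (adjusted p = 0.943 and 0.258).

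**Figure D3:**
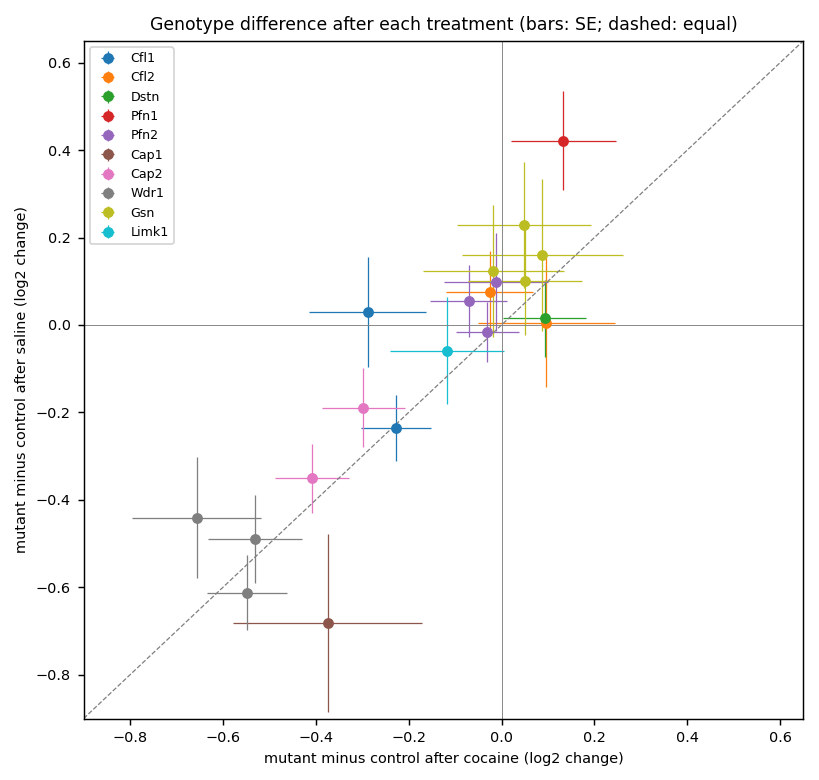
Mutant minus control after saline (vertical axis) against the same difference after cocaine (horizontal axis), in log2, for the 20 tested probe sets; bars are limma's standard errors and the dashed line marks equal differences. The Wdr1, Cap2 and Cap1 probe sets and Cfl1 1455138_x_at lie farthest into the lower left, with Wdr1 between -0.61 and -0.44 after saline.

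Cocaine left the members without a called change. By limma 0 of the 20 probe sets were called for cocaine over both genotypes, in mutants or in controls, where 2.31%, 1.92% and 0.45% of all probe sets tested were, and 0 reached an unadjusted p under 0.05 in any of the 3 contrasts, against 11.5%, 10.7% and 6.34% of all probe sets. Over both genotypes the changes ran from -0.16 for Cfl2 1418066_at (95% interval -0.38 to 0.07) to 0.08 for Gsn 1436991_x_at (-0.16 to 0.31). Wdr1 1450851_at changed by 0.02 (95% interval -0.14 to 0.17) and Pfn2 1418210_at by -0.03 (-0.14 to 0.07).

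Within mutants the outermost values were those of Cfl1 1448346_at and Wdr1 1437591_a_at, both at -0.25 (adjusted p = 0.521 and 0.577). All 3 cocaine-treated mutants lay below all 3 saline-treated mutants at Cfl1 1448346_at, and the same held for Cap2 1423222_at. In this contrast 7.65% of all probe sets were separated downwards in this way. In controls 1 member probe set was, Wdr1 1423054_at (-0.13, adjusted p = 0.924), against 4.51% of all probe sets. In controls the values ran from -0.21 for Cap1 to 0.15 for Gsn 1436991_x_at. The response to cocaine differed between genotypes for 0 of the 20 probe sets by limma (0 at an unadjusted p under 0.05), against 0.0721% of all probe sets (4.98% unadjusted). The outermost differences were -0.32 for Cfl1 1448346_at (95% interval -0.70 to 0.07), 0.31 for Cap1 (-0.32 to 0.93) and -0.29 for Pfn1 (-0.64 to 0.06), intervals wide enough that a moderate difference would not have been detected.

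**Figure D4:**
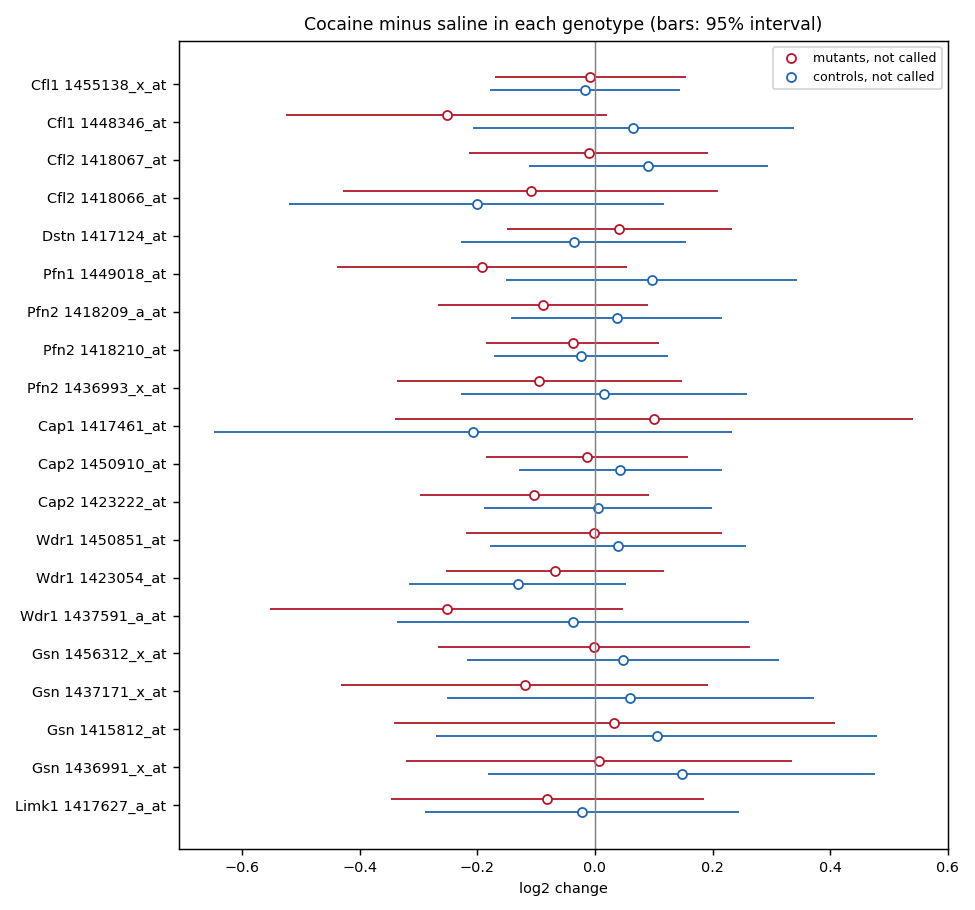
Log2 change between cocaine and saline (horizontal axis) in mutants (red) and in controls (blue) for the 20 tested probe sets (vertical axis), with limma's 95% interval. All 40 intervals include 0, and the points run from -0.25 to 0.15.

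Genes with neighbouring roles were counted from lists, with 1 probe set per gene. The lists were chosen with earlier results of these data known, so their counts are a description. Of the 15 genes listed that control cofilin phosphorylation (kinases and phosphatases among them), 9 were tested and 0 were called between genotypes by limma. Their changes ran from -0.10 to 0.11, and Rac1, which acts upstream of LIM kinase, read 0.01. Over all 6651 genes 4.77% were higher and 5.92% lower.

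Among 14 tested of 23 listed nucleation and elongation genes, 5 were lower and 0 higher (median -0.09, against -0.02 over all genes). Of the 5 tested genes for subunits of the Arp2/3 complex, which starts new filaments as branches, 4 were lower: Arpc1a (-0.29, SE 0.0548, adjusted p = 0.00517), Arpc2 and Arpc5 (both -0.23), and Actr3 (-0.21). The subunit gene Arpc4 read -0.07 (adjusted p = 0.598) and 0.07 at its other probe set. Actr3 was called at 2 of its 3 probe sets. This grouping, and Arpc4, were chosen after the values were seen. The fifth lower gene of the list was the formin gene Diaph2 (-0.58, SE 0.162, adjusted p = 0.0392). Diaph2 was dim, with a mean log2 signal of 4.51 in mutants and 5.10 in controls, near the floor of the filter. The WAVE complex gene Wasf1 read -0.09.

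Of 10 tested of 12 listed capping genes, Capzb, which encodes the beta subunit of capping protein (-0.26, adjusted p = 0.0107), and the adducin gene Add1 (-0.24) were lower and the tropomodulin gene Tmod1 (0.22) was higher, while Capza2 read 0.02. Of 10 tested of 18 listed other severing and monomer-binding genes, the thymosin gene Tmsb10 was lower (-0.34, adjusted p = 0.00479, and 2 of its 3 probe sets called). Its relative Tmsb4x, which sequesters actin monomers, read -0.01. Coro2b, named after its values were seen, was not called at the probe set used here (0.13) and was higher at its other one (0.41). In all 4 lists 0 genes were called for cocaine over both genotypes, where 2.32% of all 6651 genes were higher and 0.21% lower.

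**Figure D5:**
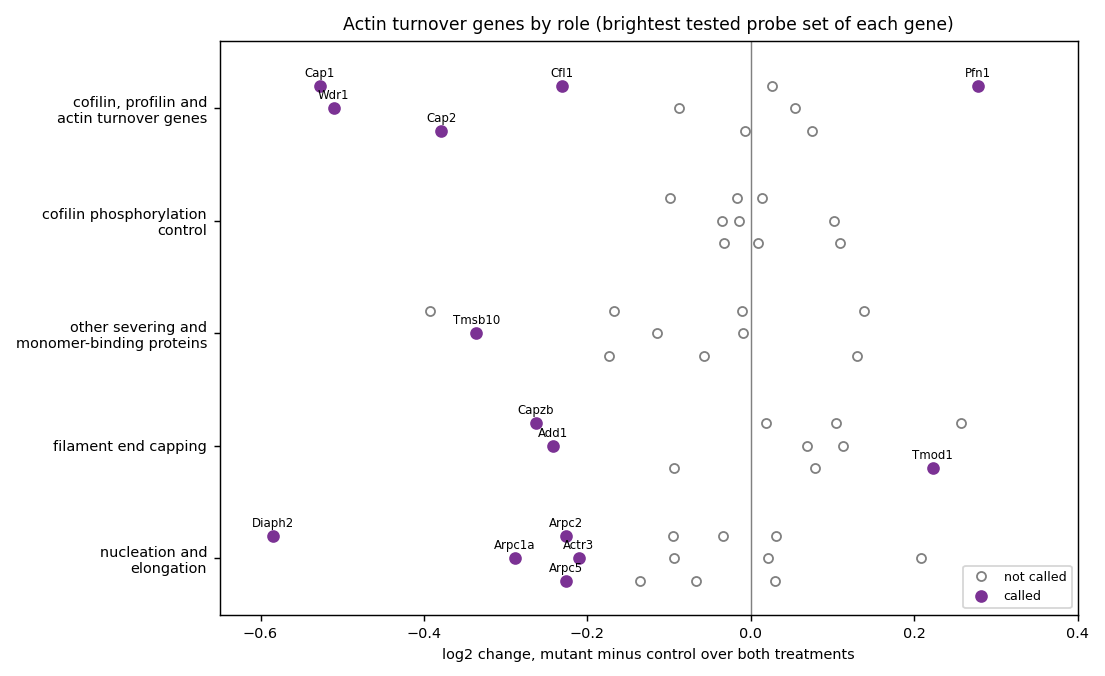
Log2 change between mutants and controls over both treatments (horizontal axis) for the members and for 4 lists of other actin regulators by role (vertical axis), at 1 probe set per gene; filled points are called. Diaph2, Wdr1 and Cap1 lie farthest to the left, and the cofilin phosphorylation genes all lie within 0.11 of 0.

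Over the 12 arrays, the probe sets whose levels followed Wdr1 1423054_at most closely were those of Arrb1 (Pearson's r = 0.979), Flna (0.966) and Lmo2 (0.964), out of 10247 compared. For Wdr1 1450851_at they were Necab2 (0.966), Rreb1 (0.964) and Actb (0.948), and for Cap2 1450910_at Gstp1 (0.967), Nrep (0.965) and Inhba (0.962). Fam193b came first for both Cap2 1423222_at (0.950) and Wdr1 1437591_a_at (0.951), followed by Lman1 (0.935) and St6galnac5 (0.915) for the Cap2 probe set and by Lrrc14 (0.922) and Pcdh10 (0.915) for the Wdr1 probe set. For Cfl1 1455138_x_at they were Mpp3 (0.958), Lrpap1 (0.952) and Lancl1 (0.944). For Cap1 they were Vps45 (0.943), Ggps1 (0.904) and Pgd (0.894), and for Pfn1 Rtn3 (0.928), Os9 (0.919) and Pde2a (0.910), and these 6 were not called between genotypes. The probe sets named for Wdr1, Cap2 and Cfl1 were themselves called lower in mutants, except that of Lman1 (adjusted p = 0.0852). The 12 arrays share their 4 groups, so these correlations include the step between genotypes and are given as a description.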

How the data were processed

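Each array held striatal RNA of 1 sample, labelled with biotin. The submitters' processing notes name R 2.4.1 and GCRMA, which corrects background and normalises arrays together, and the values the authors deposited were taken as log2 signals. Its options and the log base are not given in the sources used, and array medians lay at 3.75 to 3.78. GCRMA compresses dim signals, so folds near a log2 signal of 4 depend on it. Precision is limited by the number of arrays.

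Groups came from the titles. Of 22690 probe sets, 64 controls were left out and 11102 passed the filter. limma 3.58.1 in R 4.3.3 was fitted to all 12 arrays with 4 group means (8 residual and 4.71 prior degrees of freedom), with Benjamini-Hochberg adjustment over the 11102 probe sets. Calls are two-sided, at an adjusted p under 0.05, and all adjusted p printed are limma's. SE and 95% intervals are limma's. The pipeline was tested on simulated data. The titles speak of biological replicates.

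Gene symbols came from the platform annotation. The named genes are all members, Srf, up to 4 called genes with the largest changes and the uncalled gene with the highest signal from each role list, the 3 probe sets best correlated with each called member, and marker genes where their list is described. Genes named outside this rule are marked as such in the text. Start sequences were taken from RefSeq (GRCm38.p6), matched by symbol for all 10 genes. The members and lists were chosen with earlier results of these data known. Alternatives were no filter, a stricter filter, array weights, renewed quantile normalisation, an intensity trend, the replicate number as a block, the mean over a gene's probe sets, and leaving out each array.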

Additional observations from a re-analysis of the deposited data

How the results depend on the processing

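Between genotypes over both treatments, the count of 8 called probe sets was 6 without the filter, with a stricter one (over 5) or with the replicate block, 8 with array weights, renewed quantile normalisation or an intensity trend, and 5 to 7 with 1 array left out. After saline the count of 3 was 5 with an intensity trend and 1 to 4 with 1 array left out. After cocaine the count of 4 was 2 to 4 with 1 array left out. For cocaine and for the difference in response it was 0 in every one of these fits. No sign of a called change turned. Without the filter Pfn1 (adjusted p = 0.110) and Cap1 (0.132) were not called. The titles number the replicates 1 to 3 in each group. Over all tested probe sets no pairing by number was seen: deviations of same-numbered arrays correlated at -0.145 to 0.116, over 0.1 in 1 of 18 pairs, and 2 of 12 arrays correlated best with their own number. A correlation over all probe sets cannot show a link confined to some of them. With the number as a replicate block Cap1 (-0.53, adjusted p = 0.0632) and Cap2 1423222_at (-0.24, adjusted p = 0.0517) were not called over both treatments; after saline Pfn1 was (adjusted p = 0.0458) and Cap2 1450910_at was not (0.0586). With an intensity trend Cfl1 1455138_x_at was called within each treatment (0.0235 after saline, 0.0231 after cocaine). Without the filter Wdr1 1437591_a_at was not called after cocaine (0.0684). Dim probe sets (Cap1, Limk1) and 3 arrays a group limit what could be detected.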
